A study of Mus musculus with 8 samples.

Results

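Complement components and regulators are represented here by 9 genes: C1ra, C1s1, C4b, C2, C3, Cfb, Serping1, Clu and Cd55. All 9 were found by name in the deposited table, out of 45232 gene names, and their transcript levels were followed in CD4+ CD25+ T cells sorted from mouse tissue. They were chosen because several of them were high in Id2-deficient cells of adipose tissue, so the difference between genotypes in that tissue is described without a test. Of the 9, 7 had both KO adipose libraries above both WT adipose libraries.

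The tested groups were Id2-deficient cells (KO, genotype label Id2 CKO) from visceral adipose tissue and from spleen, and the WT cells of the same tissues came from the same C57BL/6 strain. Each of the 4 groups held 2 libraries, numbered 2 and 3, and at least 500 cells were sorted for a sample per the labels. The sources used here do not give the driver of the Id2 deletion, the age of the mice or whether a group's libraries came from separate mice. P-values therefore measure only a spread between libraries that may be technical in part. The gate of CD4 and CD25 is rich in regulatory T cells (Tregs), and values are in TPM, a share of the library corrected for transcript length that sums to 1000000 in each library.

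Complement is a cascade of plasma proteases and binding proteins that marks surfaces for uptake or lysis. The classical route starts with C1q and its proteases C1r and C1s, which cut C4 and C2 to form an enzyme that cleaves C3, and the alternative route forms a second such enzyme from C3 and factor B. Soluble inhibitors such as the C1 inhibitor and membrane proteins such as CD55 hold the cascade in check. Liver makes most plasma complement, and macrophages, fibroblasts, mesothelium and adipose tissue make some components locally.

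Before the values of the 9 genes, several libraries stood apart. KO adipose 2 had the fewest gene names above 0 TPM of the 8 libraries (13184) and KO adipose 3 the most (20684). Across tested genes these 2 libraries correlated at 0.812, the lowest of the 4 groups, beside 0.902 in WT adipose tissue. A value of 0 in KO adipose 2 is read with this limit. Id2, the targeted gene, kept transcript in every KO library: 1499 and 1298 TPM remained in adipose cells of KO mice, where WT cells had 2249 and 3679 TPM, and 72.1 and 265 TPM remained in spleen cells of KO mice, where WT cells had 274 and 346 TPM. The Treg factor gene Foxp3 was low in both KO libraries numbered 2, with 7.40 TPM in the adipose and 8.27 TPM in the spleen one, and reached 93.5 to 266 TPM elsewhere. All 11 T cell genes and all 6 Treg genes of the marker lists were at 1 TPM or more in every library. The median of all tested genes for the log2 difference of KO against WT was -0.27 in adipose tissue and -0.12 in spleen.

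The proteases and substrates of the classical route were near 0 outside KO adipose tissue. C1ra, which encodes the protease that activates C1s, was at 24.6 and 46.0 TPM in KO adipose libraries 2 and 3, and was listed at 0 in both WT adipose libraries. C1s1, which encodes the protease that cuts C4 and C2, was at 44.3 and 68.8 TPM in KO adipose tissue and was listed at 0 in both WT adipose libraries. For both genes each KO library was above each WT library, and the KO libraries differed by less than 2-fold, with ratios of library 3 to library 2 of 1.88 for C1ra and 1.55 for C1s1. C2, the next substrate and the protease part of the classical C3 convertase, was at 14.7 and 28.6 TPM in KO adipose libraries versus 0.393 and 1.22 TPM in WT ones (log2 difference 3.61). C4b, the other part of that enzyme, went with 1 library: it was at 0.999 and 62.3 TPM in KO adipose libraries versus 0 and 1.13 TPM in WT ones. The groups therefore overlapped for C4b, and the log2 difference of 2.94 was 0.45 with KO adipose 2 alone and 5.44 with KO adipose 3 alone.

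C3 and Cfb, the core of the alternative route, were high in both KO adipose libraries. C3, which encodes the central protein that all routes cleave, was at 108 and 310.2 TPM in KO adipose libraries versus 0.0164 and 0.212 TPM in WT ones (log2 difference 7.37). Cfb, which encodes factor B, the protease of the alternative C3 convertase, was at 46.7 and 74.1 TPM in KO adipose libraries versus 0 and 0.193 TPM in WT ones (log2 difference 5.78). Neither gene overlapped between the genotypes there. The ratio of KO adipose 3 to KO adipose 2 was 2.87 for C3 and 1.58 for Cfb.

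Of the 3 regulators, both soluble ones followed the same pattern and the membrane one did not. Serping1, which encodes the inhibitor of C1r and C1s, was at 111 and 213 TPM in KO adipose tissue and was listed at 0 in both WT adipose libraries. Clu, which encodes clusterin, a secreted chaperone that blocks assembly of the membrane attack complex, was at 113 and 65.5 TPM in KO adipose libraries versus 0 and 1.81 TPM in WT ones (log2 difference 5.70). Clu was the one gene of the 7 without overlap that was lower in KO adipose 3 than in KO adipose 2, with a ratio of 0.578. Cd55, which encodes the decay accelerating factor that breaks up C3 convertases on the cell surface, was at 56.4 and 14.7 TPM in KO adipose libraries versus 29.6 and 9.35 TPM in WT ones. Its groups overlapped: in both genotypes library 2 was above library 3, and the log2 difference of 0.75 was 1.69 with KO adipose 2 alone and -0.18 with KO adipose 3 alone.

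**Figure D1:**
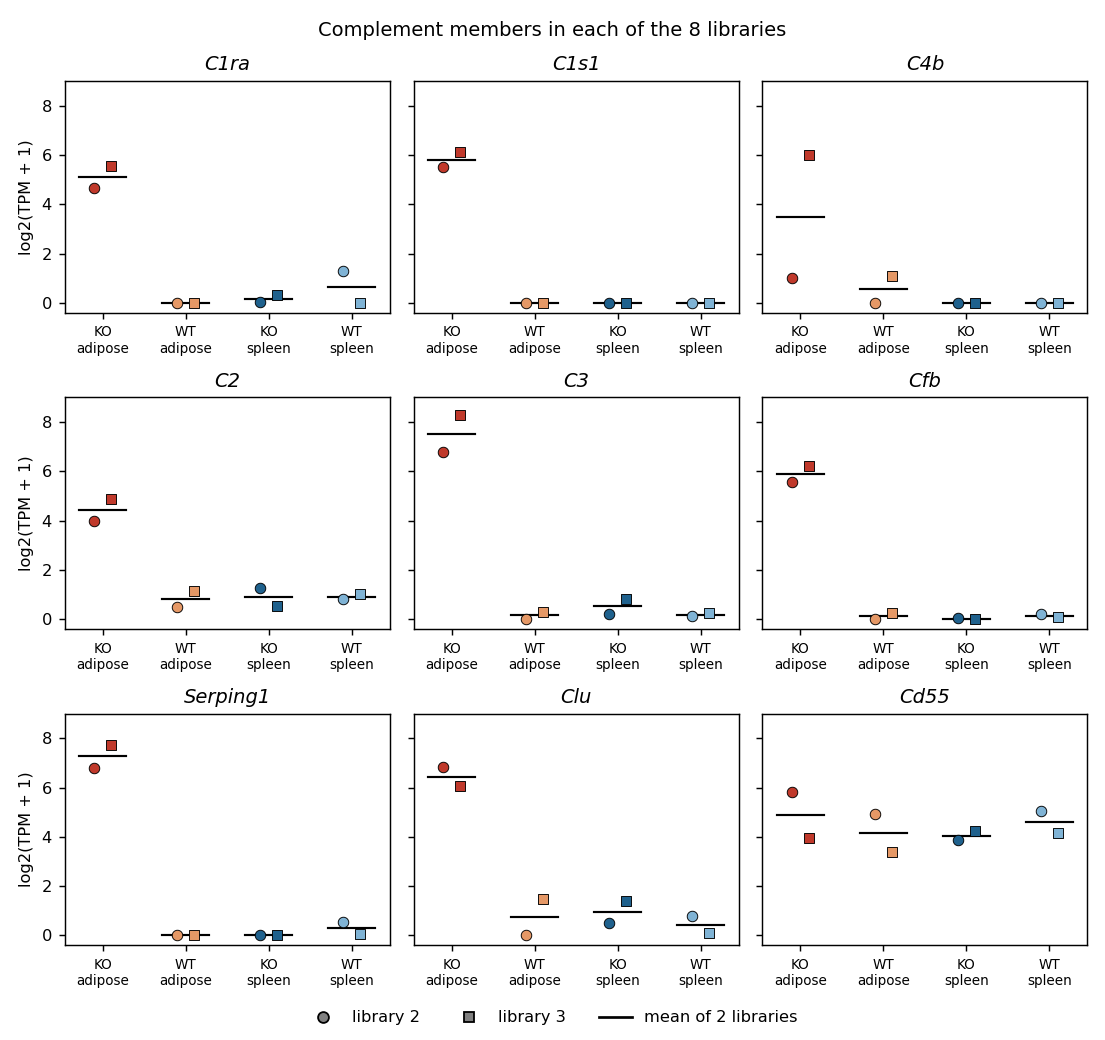
Level of each of the 9 complement genes as log2(TPM + 1) on the vertical axis, by group on the horizontal axis; circles are library 2, squares library 3, and the line is the mean of 2 libraries. In 7 panels both KO adipose points sit above every other point, C4b has 1 high KO adipose library, and Cd55 lies between 9.35 and 56.4 TPM in all 8 libraries.

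In KO adipose tissue the levels ran from C3 at the top to C2 at the bottom, but no neighbours in that order were separated by their libraries. C3 averaged 209 ± 143 TPM (SD, n = 2) and Serping1 162 ± 72.3 TPM (SD, n = 2). Clu averaged 89.4 ± 33.8 TPM, Cfb 60.4 ± 19.3 TPM and C1s1 56.5 ± 17.3 TPM (SD, n = 2 each). Cd55 averaged 35.5 ± 29.5 TPM, C1ra 35.3 ± 15.2 TPM, C4b 31.6 ± 43.3 TPM and C2 21.7 ± 9.83 TPM (SD, n = 2 each). C3 ranked 3 in KO adipose 2 and 1 in KO adipose 3, whereas Clu ranked 1 and 5 and Cd55 ranked 4 and 9. Serping1, C1ra and C2 held the same rank (2, 7 and 8) in both libraries.

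The median log2 difference of the 9 genes, KO minus WT in adipose tissue, was 5.70, beside -0.27 over all 13376 genes tested. All 9 passed the filter of at least 1 TPM in at least 2 libraries, and 4 of them reached 1 TPM in the 2 KO adipose libraries only. Across all tested genes, 7.66% had both KO adipose libraries above both WT adipose libraries, and 2.00% had this with a log2 difference of at least 2. The test over all genes called 38 genes between the genotypes in adipose tissue (0.284%), 37 of them higher in KO (0.277%). That count rested on single libraries: leaving out KO adipose 2 gave 343 and leaving out KO adipose 3 gave 66, dropping WT adipose 2 gave 14 and dropping WT adipose 3 gave 6, and removal of any one spleen library gave 14 to 18. The 9 genes were chosen on this contrast, and their count of 7 is given as a description.

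Outside KO adipose tissue, the 8 genes other than Cd55 were scarcely present. Of their 16 values in WT adipose tissue, 9 were listed at 0 and all were under 2 TPM. Of their 32 values in spleen, 12 were listed at 0, 28 were under 1 TPM, and the highest was 1.65 TPM, for Clu in KO spleen 3. The summed level of these 8 genes was 464 and 869 TPM in KO adipose libraries, while WT adipose libraries had 0.409 and 4.57 TPM. In spleen it was 2.02 and 3.10 TPM in KO and 3.64 and 1.36 TPM in WT. In these bulk samples fewer cells of a type and less RNA per cell cannot be told apart.

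The spleen libraries were not used to choose the genes, but for most of the 9 a test there could show little. C3, Cfb, C1s1 and Serping1 passed the filter through the KO adipose libraries alone, and C1s1 and C4b were listed at 0 in all 4 spleen libraries. In limma 0 of the 9 genes passed, with 0 at an unadjusted p under 0.05, and 0 of all 13376 tested genes (0%), with 64 at an unadjusted p under 0.05. Cd55, the one gene with a clear level in spleen, was at 13.6 and 17.7 TPM in KO spleen libraries versus 32.0 and 17.0 TPM in WT ones. The libraries overlapped, and the log2 fold change was -0.56 (SE 0.74, limma adjusted p = 1). C2 was at 1.37 and 0.428 TPM in KO spleen libraries versus 0.742 and 1.01 TPM in WT ones (log2 fold change -0.026, SE 0.60, limma adjusted p = 1). Clu was at 0.423 and 1.65 TPM in KO spleen libraries versus 0.720 and 0.0659 TPM in WT ones (log2 fold change 0.52, SE 0.71, limma adjusted p = 1). C1ra was at 0.0246 and 0.237 TPM in KO spleen libraries versus 1.48 and 0 TPM in WT ones, so that its level in WT spleen came from library 2. Serping1 was listed at 0 in both KO spleen libraries against 0.476 and 0.0325 TPM in WT, and Cfb was at 0.0359 and 0 TPM in KO spleen libraries versus 0.141 and 0.0535 TPM in WT ones. For Serping1 and Cfb both KO spleen libraries were below both WT ones, as in 13.9% of all tested genes, and all these values were under 1 TPM. This order in spleen together with the opposite one in adipose tissue was found in 1.14% of all tested genes. The fit shares its spread with the adipose libraries, which differed more within a group, and this can hide differences in spleen.

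Between adipose tissue and spleen in WT cells the median log2 difference of the 9 genes was -0.030, beside 0.32 over all tested genes. The genes other than Cd55 were near 0 in both tissues, so this median had to be small. WT adipose libraries are part of the contrast on which the genes were chosen, so no test is given. Cd55 had 29.6 and 9.35 TPM in WT adipose libraries, while WT spleen libraries had 32.0 and 17.0 TPM, with overlap. Serping1 was the one gene without overlap, listed at 0 in both WT adipose libraries against 0.476 and 0.0325 TPM in WT spleen, an order that 15.1% of all tested genes had. In KO cells, C3 had 108 and 310.2 TPM in adipose libraries, while the spleen libraries had 0.164 and 0.782 TPM. Cd55 had 56.4 and 14.7 TPM in KO adipose libraries, while the KO spleen libraries had 13.6 and 17.7 TPM, with overlap.

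Several of these genes have close copies or lie next to each other, which bears on how reads could be assigned. In the RefSeq gene order (GRCm38.p6), C1ra and C1s1 are neighbours and are followed by their copies C1rb and C1s2, C2 follows Cfb, and Cd55 follows its copy Cd55b, which the table lists as Daf2. Reads of C4b and its near-identical copy C4a could be split by the counting, so the level of C4b is uncertain. The copies were all at low levels: C4a was at 0 and 0.135 TPM in KO adipose tissue, C1rb at 0.0165 and 0.0313 TPM, C1s2 at 0 and 0.0857 TPM and Cd55b at 0 and 0.0908 TPM.

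Promoter sequences were taken from RefSeq (GRCm38.p6), where 4 of the 9 genes were matched: C3, C1s1, C1ra and Cd55. Each window runs from 250 bases before the transcription start to 50 bases after it, and the first 3 are shown because these genes were high together in KO adipose tissue, whereas Cd55 is shown because it did not follow them. The C3 window lies at chr17:57228087-57228386 on the minus strand, that of C1s1 at chr6:124542310-124542609 on the minus strand, that of C1ra at chr6:124512371-124512670 on the plus strand, and that of Cd55 at chr1:130462695-130462994 on the minus strand. Capitals mark matches, on either strand, to CANNTG, the E box bound by the E proteins that Id2 restrains, and to TTGCNNAA, a frame of the C/EBP site. In C1ra the last match of each overlaps the other.
C3: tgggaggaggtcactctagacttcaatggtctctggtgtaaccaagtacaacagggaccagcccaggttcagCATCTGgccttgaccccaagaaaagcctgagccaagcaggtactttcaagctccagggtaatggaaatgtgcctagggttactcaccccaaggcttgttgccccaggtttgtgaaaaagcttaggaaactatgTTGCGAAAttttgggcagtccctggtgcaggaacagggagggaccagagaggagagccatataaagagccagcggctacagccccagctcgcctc
C1s1: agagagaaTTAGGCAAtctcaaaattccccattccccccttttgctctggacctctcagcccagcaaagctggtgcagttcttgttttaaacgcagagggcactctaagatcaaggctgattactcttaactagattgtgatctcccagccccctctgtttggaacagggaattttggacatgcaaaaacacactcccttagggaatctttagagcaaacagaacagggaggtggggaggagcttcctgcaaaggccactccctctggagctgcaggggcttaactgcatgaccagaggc
C1ra: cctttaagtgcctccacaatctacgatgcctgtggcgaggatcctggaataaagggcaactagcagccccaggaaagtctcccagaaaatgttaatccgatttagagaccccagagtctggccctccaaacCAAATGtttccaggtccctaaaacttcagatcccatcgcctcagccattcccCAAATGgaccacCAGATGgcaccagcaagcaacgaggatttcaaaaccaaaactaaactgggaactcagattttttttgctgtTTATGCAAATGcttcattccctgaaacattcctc
Cd55: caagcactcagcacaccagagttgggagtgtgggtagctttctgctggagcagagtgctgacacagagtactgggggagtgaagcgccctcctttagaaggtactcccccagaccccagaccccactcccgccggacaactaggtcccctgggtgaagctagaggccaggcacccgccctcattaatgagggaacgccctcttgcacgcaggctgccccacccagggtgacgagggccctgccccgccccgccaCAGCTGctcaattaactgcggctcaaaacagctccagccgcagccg

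The C/EBP frame TTGCNNAA was present once in each of the C3, C1s1 and C1ra windows and not in that of Cd55, and 10.8% of all 32851 promoter windows hold it. In C3 it began 45 bases before the start and in C1s1 242 bases before it, whereas in C1ra it began 16 bases after the start. A second C1s1 window in RefSeq, shifted downstream, did not hold it. The E box CANNTG was matched 4 times in C1ra, 1 time in C3 and 1 time in Cd55 and not in the C1s1 window shown, beside 72.3% of all windows. The single Cd55 match was the form CAGCTG, which 16.3% of windows hold and which the other windows shown did not. A frame of NF-kB sites, GGG, any 5 bases and CC (50.8% of windows), was matched in C3, C1s1 and Cd55, the STAT motif TTCNNNGAA (8.30%) in C1ra alone, and the interferon response motif, GAAA, any 2 bases and GAAA (3.44%), in none of these windows. These matches describe letters in a window and were not tested as binding sites.

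The genes outside the set whose profile over the 8 libraries was nearest to C3 included 3 of the mesothelium markers. Profiles of log2(TPM + 1), each less its own mean, were compared by root mean square distance over 8 libraries, among 9260 tested genes with a group mean of at least 5 TPM; the complement set, mitochondrial genes, pseudogenes, unnamed or predicted genes and segments of antigen receptor genes were left out. The nearest of these were Nkain4 (distance 0.496 log2 units), Upk1b, a uroplakin gene of mesothelium (0.501), Gpm6a (0.605), Msln, which encodes mesothelin (0.652), and Igfbp6 (0.686). Nkain4 was at 113 and 107 TPM in KO adipose tissue and was listed at 0 in the other 6 libraries. Of the other complement genes of the set, Serping1 (0.36) was nearer to C3 than any of these, followed by C1s1 (0.694), Cfb (0.706), Clu (0.956) and C1ra (1.16). C2 (1.64) and C4b (1.96) came next, and Cd55 was farthest (3.04). The set was chosen because several of its genes were high in KO adipose libraries, which enter this distance. Genes near C3 therefore had to be high there too, so nearness within or outside the set describes and does not support. Across all tested genes, 2.00% had both KO adipose libraries above both WT ones with a log2 difference of at least 2.

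Cd55 had other neighbours. The nearest were Toe1 (0.184 log2 units), Epsti1 (0.201), Dhrs13 (0.211), Atp1b3, a sodium pump subunit (0.253), and Rbm48 (0.317). Atp1b3 was at 1492 and 467 TPM in KO adipose libraries versus 1245 and 374 TPM in WT ones, with library 2 above library 3 in both genotypes, as for Cd55.

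Markers of other cell types were high in the same libraries as these genes, and their part in the result was not tested. Of 10 mesothelium markers, 10 had both KO adipose libraries above both WT ones, an order that 7.66% of all tested genes had. The summed level of these markers was 292 and 645 TPM in KO adipose libraries versus 6.55 and 3.93 TPM in WT ones, and at most 8.36 TPM in spleen. Their defining genes Msln (24.7 and 150 TPM in KO), Upk3b (20.5 and 52.9 TPM) and Wt1 (1.06 and 6.86 TPM) each had a value of 0 in the WT adipose libraries. Of 10 fibroblast markers, 5 had this order, with sums of 420.3 and 2660 TPM in KO adipose libraries versus 0.29 and 4.36 TPM in WT ones, and at most 0.343 TPM in spleen. The fibroblast sum was mostly the matrix gene Dcn (404 and 2493 TPM in KO), while Col1a1 was at 0.855 and 5.39 TPM and Pdgfra at 0 and 0.0339 TPM in the same libraries. The ratio of KO adipose 3 to KO adipose 2 was 2.21 for the mesothelium sum and 6.33 for the fibroblast sum, beside 0.578 to 2.87 for the 7 complement genes without overlap. A sum and single genes are unlike measures, and single mesothelium markers varied more than their sum. In KO adipose 2 and 3, Krt8 was at 7.99 and 70.3 TPM, Upk1b at 113 and 106 TPM and Muc16 at 33.7 and 6.10 TPM.

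The macrophage and adipocyte sums differed far more between the 2 KO adipose libraries, whereas the erythroid sum was high in both. The macrophage list summed to 6150 TPM in KO adipose 3 but to 10.2 TPM in KO adipose 2, against 8.17 and 20.8 TPM in WT adipose tissue. In KO adipose 2 the macrophage genes Lyz2 and Adgre1 were at 0.918 and 0 TPM, and the same library had C3 at 108 TPM. The part of macrophages in the level of C3 was not tested. C4b, with 62.3 TPM in KO adipose 3 beside 0.999 TPM in KO adipose 2, was high in the same library as the macrophage and adipocyte sums. The fibroblast, endothelium and dendritic cell sums were also higher in that library, at 2660, 1055 and 1877 TPM. With 1 such library these cannot be told apart. The adipocyte list summed to 125 and 13990 TPM in KO adipose libraries versus 31.6 and 2191 TPM in WT ones. In the libraries numbered 2 most of this sum was Pparg, at 107 TPM in KO and 25.6 TPM in WT. In those numbered 3 most of it was Fabp4, at 13591 TPM in KO and 1991 TPM in WT. The defining adipocyte gene Adipoq was at 0.0290 and 112 TPM in KO adipose libraries versus 0 and 9.46 TPM in WT ones, and Plin1 at 0 and 1.63 TPM against 0 and 2.84 TPM. Of 7 erythroid genes found, 6 had both KO adipose libraries above both WT ones, beside 7.66% of all tested genes. The erythroid genes summed to 34710 and 65680 TPM in KO adipose libraries versus 38.4 and 3798 TPM in WT ones. The ratio of KO adipose 3 to KO adipose 2 was 1.89, and the part of erythroid cells in the result was not tested. Hba-a1 was at 6755 and 8148 TPM in KO adipose libraries versus 19.8 and 707 TPM in WT ones. The erythroid sum was also between 1186 and 107800 TPM in the spleen libraries.

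**Figure D2:**
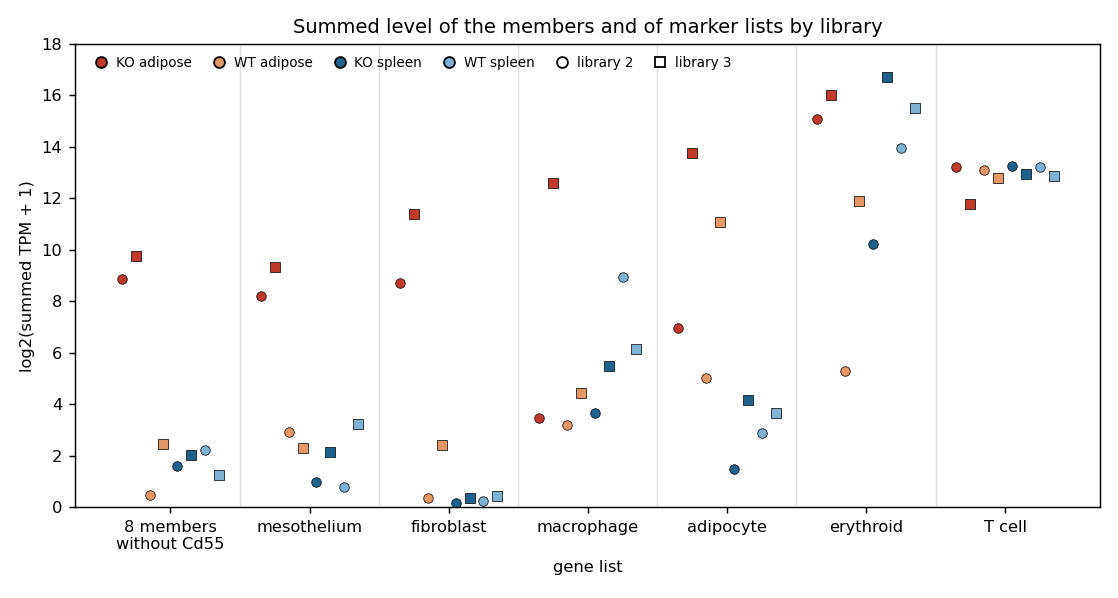
Summed level, as log2(summed TPM + 1), of the 8 complement genes other than Cd55 and of 6 marker lists, by library; colours are groups, circles library 2 and squares library 3. The complement, mesothelium, fibroblast and erythroid sums are high in both KO adipose libraries, at 464 and 869 TPM for complement, whereas the macrophage sum is 6150 TPM in KO adipose 3 but 10.2 TPM in KO adipose 2.

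**Figure D3:**
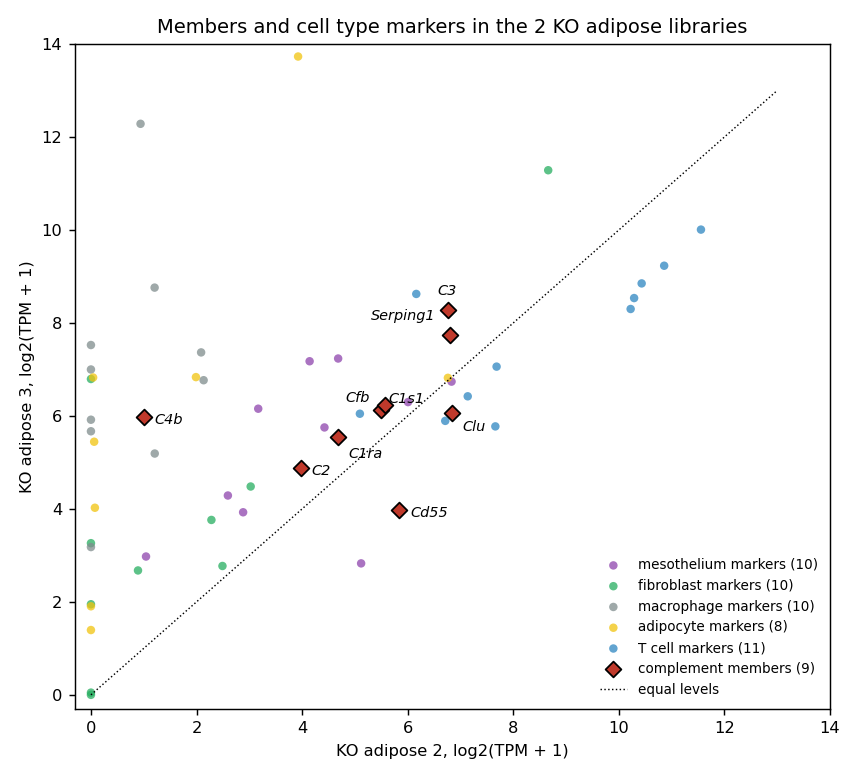
Level in KO adipose 3 against that in KO adipose 2, both as log2(TPM + 1), for the 9 complement genes (diamonds) and for markers of 5 cell types; the dotted line marks equal levels. Most complement genes lie near the line with ratios between 0.578 and 2.87. C4b lies far above it, as do many macrophage and adipocyte markers and the fibroblast gene Lum. Cd55 lies below it with most T cell markers.

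The endothelium list summed to 13.3 and 1055 TPM in KO adipose libraries versus 39.4 and 139 TPM in WT ones, with Cdh5 at 0 and 65.5 TPM in KO and Pecam1 at 6.96 and 189 TPM. The dendritic cell list summed to 41.9 and 1877 TPM in KO adipose libraries versus 57.6 and 21.7 TPM in WT ones, and H2-Ab1 carried most of it, at 33.0 and 1564 TPM in KO. Of its defining genes, Flt3 was at 0.00516 and 0.343 TPM and Zbtb46 at 0 and 6.64 TPM in KO, while Cd209a was at 0 and 168 TPM and Clec10a at 0 and 126 TPM. Hepatocyte markers summed to 7.96 and 313 TPM in KO adipose libraries versus 4.24 and 14.1 TPM in WT ones. In KO most of this sum was Trf (7.95 and 308 TPM), with Alb at 0 and 2.35 TPM and Apoa1 at 0 and 0.431 TPM. B cell markers summed to 56.1 and 12.2 TPM in KO adipose libraries versus 46.3 and 26.6 TPM in WT ones. In KO most of this sum was Cd79b (56.1 and 11.1 TPM), with Cd79a at 0 and 0.679 TPM. These 4 lists summed to at most 56.1 TPM in KO adipose 2, and the part of these cell types in the result was not tested. The T cell list summed to 9439 and 3560 TPM in KO adipose libraries versus 8818 and 7057 TPM in WT ones, a ratio of KO adipose 3 to KO adipose 2 of 0.377, beside 0.261 for Cd55.

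The rest of the complement system was described by 47 further genes, all found in the table, of which 9 were listed at 0 in all libraries and 21 passed the filter. None was called between the genotypes in adipose tissue: limma called 0 higher and 0 lower, beside 0.284% called among all tested genes. At an unadjusted p under 0.05 in limma were 8 of the 21, beside 932 of all 13376 tested genes. For these 21 the median log2 fold change was 2.36, with 15 positive and 6 negative. Both KO libraries were above both WT libraries for 8 of them and below for 4, beside 7.66% and 27.5% of all tested genes. A gene that reached the filter through the KO adipose libraries alone had to differ, so these counts describe and do not support. Without KO adipose 2, limma called 9 of the 21, all higher in KO and resting on KO adipose 3 alone, and without KO adipose 3 it called 1, higher in KO.

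Of the genes that start the cascade, the C1q genes and Fcna were high in KO adipose 3 and not in the other adipose libraries, and they were also present in spleen. C1qa, C1qb and C1qc, the 3 chains of the recognition protein C1q, reached 1194, 2781 and 1142 TPM in KO adipose 3 but only 1.16, 5.78 and 0 TPM in KO adipose 2. In WT adipose tissue each was at or under 0.70 TPM. The log2 fold change of C1qb was 6.58 (SE 2.48, limma adjusted p = 0.604). Fcna, which encodes the lectin route protein ficolin A, was at 0 and 350 TPM in KO and was listed at 0 in both WT adipose libraries, and Colec12, a collectin of surface type, was at 1.17 and 20.3 TPM in KO adipose libraries versus 0 and 0.164 TPM in WT ones. In spleen Fcna was at 1.67 and 19.0 TPM in KO and at 37.3 and 23.4 TPM in WT. C1rl, a relative of C1r, was at 3.17 and 5.46 TPM in KO adipose libraries versus 0 and 0.0258 TPM in WT ones (log2 fold change 2.36, SE 0.48, limma adjusted p = 0.155). Both Colec12 and C1rl passed the filter through the KO adipose libraries alone, so a difference was built in and the test of C1rl cannot decide. The macrophage list was high in KO adipose 3, with the values above. The C1q proteases C1ra and C1s1 had ratios between the KO adipose libraries of 1.88 and 1.55, against 1033 for C1qa and 481 for C1qb.

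**Figure D4:**
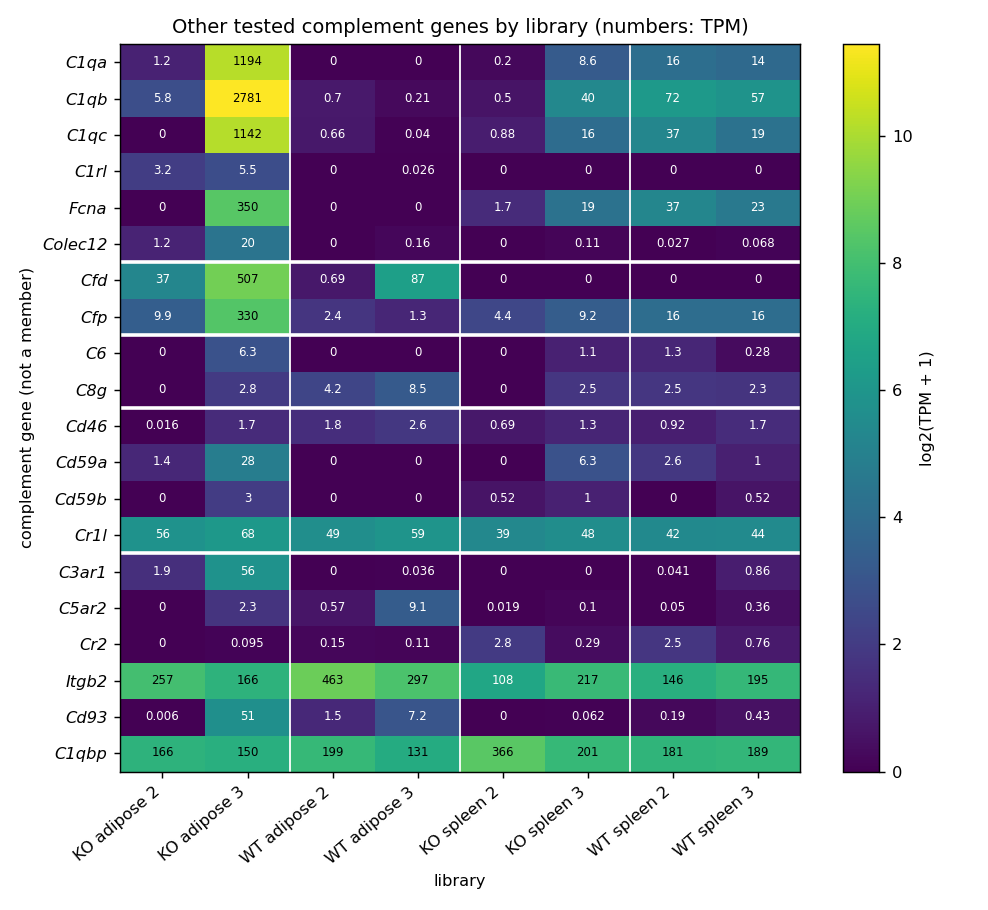
Level of tested complement genes outside the chosen 9, as log2(TPM + 1) in colour with the TPM printed, in rows grouped by role (initiation, alternative route, terminal components, membrane regulators, receptors) and in columns by library. The C1q genes and Fcna are high in KO adipose 3, with C1qb at 2781 TPM, and Cr1l and C1qbp are present in all 8 libraries.

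In the alternative route, Cfd and Cfp also varied between libraries of a group. Cfd, which encodes adipsin, the adipocyte protease that cuts factor B, was at 36.9 and 507 TPM in KO adipose libraries versus 0.687 and 87.0 TPM in WT ones (log2 fold change 3.51, SE 1.75, limma adjusted p = 0.747). Cfd was listed at 0 in all 4 spleen libraries, and its 4 adipose libraries had the same order as the adipocyte sum. That sum was mostly Pparg in both adipose libraries numbered 2. Cfp, which encodes properdin, the stabiliser of the alternative convertase, was at 9.86 and 330.2 TPM in KO adipose libraries versus 2.36 and 1.34 TPM in WT ones (log2 fold change 4.42, SE 1.31, limma adjusted p = 0.433).

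Of the soluble regulators outside the chosen set, Vtn, which encodes vitronectin, was at 0 and 29.6 TPM in KO and was listed at 0 in both WT adipose libraries. Its single library above 1 TPM kept it below the filter.

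Terminal components were low, with C8g, a chain of the membrane attack complex, at 0 and 2.80 TPM in KO adipose libraries versus 4.22 and 8.54 TPM in WT ones (log2 fold change -1.86, SE 0.85, limma adjusted p = 0.74). Among membrane regulators, Cr1l, which encodes the mouse C3 regulator Crry, was at 55.6 and 67.8 TPM in KO adipose libraries versus 49.0 and 58.8 TPM in WT ones and between 39.3 and 48.2 TPM in spleen. Its log2 fold change in adipose tissue was 0.19 (SE 0.32, limma adjusted p = 0.898), and Cr1l, like Cd55, was present in all 8 libraries. Cd59a, which encodes an inhibitor of the membrane attack complex, was at 1.39 and 28.1 TPM in KO and was listed at 0 in both WT adipose libraries.

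Receptors for complement fragments differed in which library carried them. C3ar1, the receptor for C3a, was at 1.90 and 56.4 TPM in KO adipose libraries versus 0 and 0.0361 TPM in WT ones (log2 fold change 3.66, SE 1.18, limma adjusted p = 0.51). This gene too passed the filter through the KO adipose libraries alone, so its test cannot decide. C5ar1, the receptor for C5a, was at 0 and 152 TPM in KO, and Itgam, a chain of complement receptor CR3, at 0.00628 and 17.6 TPM. Both were at or under 0.0133 TPM in WT adipose tissue, and neither passed the filter, since only KO adipose 3 reached 1 TPM. Cd93 was at 0.0060 and 51.2 TPM in KO adipose libraries versus 1.47 and 7.18 TPM in WT ones. Itgb2, the beta chain of CR3 that T cells also use, was at 257 and 166 TPM in KO adipose libraries versus 463 and 297 TPM in WT ones (log2 fold change -0.84, SE 0.44, limma adjusted p = 0.748). C1qbp, a mitochondrial protein that can bind C1q, was at 166 and 150 TPM in KO adipose libraries versus 199 and 131 TPM in WT ones.

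In spleen, limma called 0 of these 21 genes between the genotypes (median log2 fold change -0.17). At an unadjusted p under 0.05 in limma were 0 of them, beside 64 of all tested genes. The C1q genes were lower in both KO spleen libraries, an order that 13.9% of all tested genes had, and most of all in KO spleen 2. C1qb was at 0.497 and 39.8 TPM in KO spleen libraries versus 72.3 and 57.3 TPM in WT ones (log2 fold change -3.06, SE 2.48, limma adjusted p = 1). The macrophage list summed to 11.8 and 43.5 TPM in KO spleen libraries versus 494 and 69.9 TPM in WT ones. Most of the 494 TPM was Lyz2, at 443 TPM in WT spleen 2 but 26.1 TPM in WT spleen 3. Of the 10 genes of the list, 9 were lower in both KO libraries, beside the same 13.9% of all tested genes. The part of macrophages in the level of C1q was not tested. Between adipose tissue and spleen in WT cells limma also called 0 of the 21, beside 22 of all tested genes (0.164%, and 78 with the replicate number as a block). In the same limma test 1 of the 21 had an unadjusted p under 0.05, beside 1741 of all tested genes.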

How the data were processed

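RNA of sorted CD4+ CD25+ T cells was measured in 8 libraries, 2 in each of 4 groups of genotype and tissue. Per the labels' protocols, a SMARTer ultra-low-input kit gave the cDNA and a Nextera XT kit the libraries. The deposited table holds TPM, identified from the values because each column sums to 1000000. The build was mm9, per the submitters' processing notes; the sources used here do not give the aligner, the counting tool, the annotation or the use of strand. Depth is unknown, since TPM does not keep it, and no counting intervals could be set. Spreadsheet dates replaced 27 gene names, which were kept but not named.

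The comparisons used limma (version 3.58.1, R 4.3.3) with a variance trend on log2(TPM + 1), for the 13376 genes that reached 1 TPM in 2 or more libraries. All 8 libraries entered 1 fit with 4 residual degrees of freedom. Benjamini-Hochberg adjustment covered all tested genes of a contrast (threshold 0.05). This scale understates fold changes of low genes. The fits were tested on simulated data.

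The genes and lists were chosen with earlier results of these data known. Named were the 9 genes, other complement genes with a group mean of at least 5 TPM or of a preset group (C1q genes, Cfd), defining markers, and the 5 genes nearest to C3 and to Cd55; others were named after their values were seen, and a few items are not reported here. In each of the 6 pairs of groups the change between libraries 3 and 2 correlated across genes (0.128 to 0.382). The numbers, called experiments per the file headers, were taken as a possible pairing. The table gives no positions, and promoter windows come from RefSeq GRCm38.p6, not from mm9.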

Additional observations from a re-analysis of the deposited data

Results flagged for a closer look

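For 6 of the tested complement genes both KO libraries lay above both WT libraries in adipose tissue and below both in spleen, an order that 1.14% of all tested genes had. The genes of the set were chosen as high in KO adipose tissue, no gene was called in spleen, and the difference between the tissues was not tested. On the log2(TPM + 1) scale, the KO minus WT difference in adipose tissue less that in spleen was 7.58 for Serping1 and 5.88 for Cfb, whose spleen values were all under 1 TPM. It was 7.92 for C1qa and 9.64 for C1qb, with 1 high KO adipose library. It was 5.63 for Cfp, also with 1 high KO adipose library, and 4.14 for C3ar1, whose spleen values were all at or under 0.859 TPM.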

How the results depend on the processing

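The median log2 difference of the 9 genes, KO minus WT in adipose tissue (5.70), was 8.40 with a pseudocount of 0.1, 3.59 with a pseudocount of 5, 5.56 without both KO libraries numbered 2, and 5.12 to 5.81 with 1 library left out. The count called over all genes in adipose tissue (38) was 13 with a pseudocount of 0.1, 18 with a filter at 5 TPM, 72 after quantile normalization, 162 without both KO libraries numbered 2, 0 with only the 4 adipose libraries (limma, 742 genes at unadjusted p under 0.05), and 6 (without WT adipose 3) to 343 (without KO adipose 2) with 1 library left out. Of the other complement genes it was 0 to 9 with 1 library left out and 8 without both KO libraries numbered 2. Between the tissues in WT the count over all genes (22) was 59 with a filter at 5 TPM, 7 without a variance trend, 78 with the replicate block, and 0 (without WT spleen 2) to 39 (without WT adipose 2) with 1 library left out. It was 0 in limma without a filter (1961 genes at unadjusted p under 0.05), with only the 4 WT libraries (2543) and without both KO libraries numbered 2 (2549). In spleen 0 genes were called under any of the 17 alternatives, and the adjusted p of Cd55 was never under 0.972. The sign there turned for C1ra with 1 library left out (-1.14 to 0.17, positive without WT spleen 2). It turned for C2 with a pseudocount of 5 (0.00099), after quantile normalization (0.21) and with 1 library left out (-0.39 to 0.34). The cause of these changes was not tested. C4b gave no value with a filter at 5 TPM. The replicate block gave 43 genes in adipose tissue and changed no call of a complement gene. A lone library left in a group is assumed to vary like the other groups, and the unknown depth limits all values near 0.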
